A study of Mus musculus with 9 samples.

Results

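The sirtuins are the protein deacylases that consume NAD, and the genes described here are the 7 mouse sirtuins, Sirt1 to Sirt7, with 2 enzymes of NAD salvage, Nampt and Nmrk2. They were taken by gene symbol from a table of 35275 genes, in which each of the 9 symbols had 1 row. All 9 had a mean FPKM (fragments counted per unit of gene length, scaled to library size) of at least 0.5 and were among the 11337 genes tested. The libraries came from gastrocnemius, the large calf muscle, of wild-type C57BL/6J mice that were 8 to 10 weeks old and carried an implanted osmotic pump. In 5 libraries (replicates 4 to 8) the pump delivered ammonium acetate, 2.5 mmol/kg each day, and in 4 control libraries (replicates 4, 5, 7 and 8) it held phosphate-buffered saline (PBS). Muscle was taken 4 weeks after implantation. The comparison made is of ammonium acetate with PBS, and asks how muscle responds to a lasting ammonia load. Whether the libraries come from separate animals is not stated in the labels, so the p-values refer to spread among libraries, which may be technical.

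Sirtuins remove acetyl and other acyl groups from lysine side chains and cleave a molecule of NAD in each reaction, releasing nicotinamide. Nampt, nicotinamide phosphoribosyltransferase, recycles that nicotinamide and is the rate-limiting step of NAD salvage. Nmrk2, nicotinamide riboside kinase 2, makes the same intermediate, nicotinamide mononucleotide, from nicotinamide riboside and is known for its expression in muscle. Sirt1, Sirt6 and Sirt7 are mainly nuclear, Sirt2 is mainly cytosolic, and Sirt3, Sirt4 and Sirt5 are mitochondrial.

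All 12 genes of the skeletal muscle list were detected, with a summed level from 79200 to 125000 FPKM per library, as the tissue label implies. The libraries held between 24930547 and 41780251 reads, recovered from FPKM and gene length. Libraries differed by gene length, with ammonium acetate 6 and 8 at one end and PBS 8, PBS 7 and ammonium acetate 4 at the other. The shortest tested genes, up to 1103 bases, lay above the mean of all libraries on the log2 scale in ammonium acetate 6 and 8. Their medians there were 0.19 and 0.33, and those of the longest, from 6251 bases, -0.47 and -0.34. For the shortest and the longest genes the medians were -0.14 and 0.32 in PBS 8. They were -0.15 and 0.16 in PBS 7, and -0.17 and 0.18 in ammonium acetate 4. Summed endothelial markers (5 genes) ranged from 79.2 to 94.2 FPKM in PBS and from 36.9 to 85.6 in ammonium acetate, with the lowest values in ammonium acetate 6 and 8. Of the 11 marker lists, 3 had sums that did not overlap between the groups. Among single tested genes 2.13% did not overlap. Neutrophil sums (3 genes) were 0.528 to 1.6 FPKM in PBS and 2.27 to 6.09 in ammonium acetate, erythroid sums (3 genes) 150 to 199 and 97 to 147, and skin sums (3 genes) 0.491 to 0.709 and 0.725 to 44.5, the last in ammonium acetate 5. The part of these marker sums in the values of the 9 genes was not tested. Because whole muscle was sequenced, fewer cells of a type and less RNA per cell cannot be told apart.

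The promoters of the 3 members of highest mean FPKM are shown because they differ in base composition. The windows are RefSeq's on GRCm38.p6, from 250 bases before to 50 bases after the annotated start, written 5′ to 3′ on the gene's strand. They lie at chr10:81201988-81202287 on the minus strand for Nmrk2, chr12:32820085-32820384 on the plus strand for Nampt and chr7:28766502-28766801 on the plus strand for Sirt2. Capitals mark every match, on either strand, of the TATA box letters TATAAA, the E-box letters CACGTG, the CCAAT box letters or the GC box letters GGGCGG. No matches overlap in these windows.
Nmrk2: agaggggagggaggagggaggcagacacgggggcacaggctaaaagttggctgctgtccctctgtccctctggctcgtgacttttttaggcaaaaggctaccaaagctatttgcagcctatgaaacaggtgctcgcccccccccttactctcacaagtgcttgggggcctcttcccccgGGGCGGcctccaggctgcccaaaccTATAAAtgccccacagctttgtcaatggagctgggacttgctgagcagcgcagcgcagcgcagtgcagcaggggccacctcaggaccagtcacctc
Nampt: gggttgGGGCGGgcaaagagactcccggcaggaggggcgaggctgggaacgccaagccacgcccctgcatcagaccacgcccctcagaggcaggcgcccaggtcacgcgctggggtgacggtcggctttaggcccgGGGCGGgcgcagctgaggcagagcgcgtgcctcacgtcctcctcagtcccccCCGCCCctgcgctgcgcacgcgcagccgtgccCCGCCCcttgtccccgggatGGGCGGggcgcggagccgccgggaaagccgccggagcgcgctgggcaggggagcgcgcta
Sirt2: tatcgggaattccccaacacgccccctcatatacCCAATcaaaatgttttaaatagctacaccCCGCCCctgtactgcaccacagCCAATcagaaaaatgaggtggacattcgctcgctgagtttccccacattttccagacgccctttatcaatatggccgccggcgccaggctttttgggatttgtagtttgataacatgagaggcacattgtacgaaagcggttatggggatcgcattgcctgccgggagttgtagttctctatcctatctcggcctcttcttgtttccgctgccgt

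Nmrk2 was the only member whose window held TATAAA, at position -46 from the start, a sequence found in 13.6% of the 32851 RefSeq windows. Its 8 CpG dinucleotides were close to the median of 7 over all windows. All sirtuin windows held more, from 15 in Sirt4 and Sirt5 to 47 in Sirt1, and the Nampt window held 36. Of the other sequences, CACGTG (7.15% of windows) occurred in the Sirt1 window only, with 2 matches. GGGCGG (35.7%) occurred in windows of 8 of the 9 members, all but Sirt4, with 5 matches in Nampt and 7 in Sirt1, and CCAAT (37.4%) in those of Sirt2, Sirt3 and Sirt5. All 9 members had a window, and Sirt3 and Sirt6 had 2 each, of which 1 held GGGCGG. The percentages count single windows, not genes. RefSeq's starts do not always coincide with the end of the deposited gene span. These matches describe the letters and show no binding.

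By deposited FPKM, Sirt2 was by far the highest sirtuin in this muscle, and the nuclear sirtuins were the lowest. Mean FPKM over the 9 libraries was 50.7 for Sirt2, 12.4 for Sirt3, 5.99 for Sirt5, 2.44 for Sirt4, 1.95 for Sirt1, 1.58 for Sirt6 and 0.704 for Sirt7. FPKM is scaled by the deposited gene length, so levels of different genes compare only as far as those lengths fit. They were 1367 bases for Sirt5, 2117 for Sirt2 and 4430 for Sirt1. The exon bases in GENCODE M21 are 6093, 5035 and 5331. Which exons the counting used is not stated, and the order under other lengths was not tested. Sirt2 made up between 62.1% and 73.3% of the summed sirtuin FPKM in single libraries. The mitochondrial Sirt3, Sirt4 and Sirt5 together made up 22.2% to 32.4%, and the nuclear Sirt1, Sirt6 and Sirt7 4.43% to 7.12%. Nmrk2 (mean 87.5 FPKM) and Nampt (45.3 FPKM) were at levels nearer to Sirt2 than to any other sirtuin. By mean level Nmrk2 ranked 568th, Sirt2 974th and Nampt 1097th among the tested genes, and Sirt7 10664th.

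By deposited FPKM, the ranges of neighbouring genes lay apart in the middle of the order and overlapped at its ends. Agreement between libraries does not test the gene lengths, which are the same in each. Nampt lay above Sirt3, Sirt3 above Sirt5 and Sirt5 above Sirt4 in 9 of 9 libraries, and the ranges of these neighbours did not overlap. Nmrk2 exceeded Sirt2 in 7 of 9 libraries and Sirt2 exceeded Nampt in 6 of 9, with overlapping ranges. In FPKM, the 3 leading genes thus did not differ beyond their spread. The ranges of Sirt4 and Sirt1, of Sirt1 and Sirt6 and of Sirt6 and Sirt7 also overlapped, although Sirt6 lay above Sirt7 within each of the 9 libraries.

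**Figure D1:**
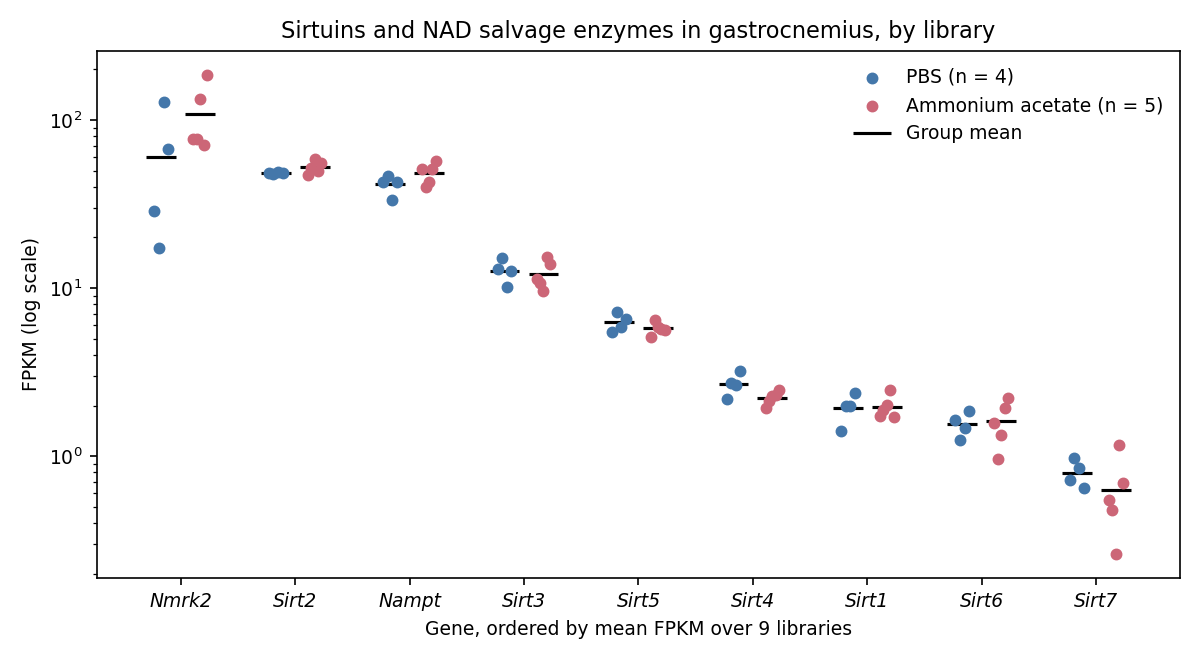
FPKM on a log axis of the 7 sirtuins and 2 NAD salvage genes in each library, PBS in blue (n = 4) and ammonium acetate in red (n = 5), with a line at each group mean. Nmrk2, Sirt2 and Nampt form the upper level, Sirt3 and Sirt5 lie between, and Sirt7 is lowest, at 0.262 FPKM in ammonium acetate 6.

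No member passed the threshold between the groups. By limma on log2(FPKM + 0.5) with Benjamini-Hochberg adjustment, 0 of 9 members and 0 of 11337 genes (0.0%) reached an adjusted p of 0.05, and the smallest adjusted p of a member was 0.527. At an unadjusted p under 0.05 there was 1 member, Nmrk2, among 9, beside 8.57% of all tested genes (972). It was higher in ammonium acetate, as were 3.21% of all tested genes. The log2 fold change was above 0 in 5 of 9 members and in 43.9% of all tested genes. In 0 of 9 members did the 2 groups separate without overlap, beside 2.13% of all tested genes. limma's voom on the recovered reads likewise gave 0 genes past 0.05 after adjustment and 924 unadjusted.

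Nmrk2 (ENSMUSG00000004939, chromosome 10, 81198170 to 81202037, mm10, minus strand) had the largest difference of the 9 and the largest spread. It measured 28.9, 17.2, 128 and 67.3 FPKM in PBS replicates 4, 5, 7 and 8, and 77.2, 77.5, 134, 71.4 and 186 FPKM in ammonium acetate replicates 4 to 8. All 5 ammonium acetate libraries lay above the PBS mean, but PBS 7 exceeded 3 of them, and the groups overlapped. Mean FPKM ± SD was 60.3 ± 49.8 for the 4 PBS libraries and 109 ± 49.9 for the 5 others. limma gave a log2 fold change of 1.14 (standard error 0.50, 95% interval 0.06 to 2.23, adjusted p = 0.527). A log2 fold change of at least 1 was seen in 18 tested genes (0.159%).

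The difference in Nmrk2 depended on the libraries used. The log2 fold change was 0.68 without PBS 5, 1.63 without PBS 7 and 0.72 without ammonium acetate 6 and 8, with adjusted p of 0.719, 0.616 and 1.0 by limma. After removal of the gene length trend it was 1.05 (limma, adjusted p = 0.628). Nmrk2 had 807 to 12053 reads in a library. The number of reads alone gives an error of 2.31% of the level in PBS and 1.37% in ammonium acetate. The within-group SD of Nmrk2, 0.95 on the log2 scale, was larger than that of 99.7% of tested genes with a mean of at least 5 FPKM. Exons of Atcayos, an antisense transcript on the opposite strand, cover 14.6% of the exon bases of Nmrk2 in GENCODE M21. Whether counting used strand is not stated in the labels, so reads of the shared bases cannot be told apart. Atcayos itself was at 15.3 ± 1.61 FPKM under PBS and 13.4 ± 3.72 under ammonium acetate, and its highest value, 17.7 FPKM, was in PBS 8.

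Nampt (ENSMUSG00000020572, chromosome 12, 32820335 to 32853369, plus strand) was slightly higher on average in ammonium acetate, within the spread between libraries. It measured 43.0, 46.2, 33.6 and 43.0 FPKM in PBS 4, 5, 7 and 8, and 51.2, 39.7, 42.6, 51.2 and 57.1 FPKM in ammonium acetate 4 to 8. PBS 7 was the lowest library, and 3 of 5 ammonium acetate libraries lay above the highest PBS value. The means were 41.5 ± 5.44 and 48.4 ± 7.09 FPKM, for a log2 fold change of 0.22 (standard error 0.13, 95% interval -0.07 to 0.50; limma, adjusted p = 0.528). It was 0.12 without PBS 7, the library in which Nampt was lowest and Nmrk2 highest among the controls.

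**Figure D2:**
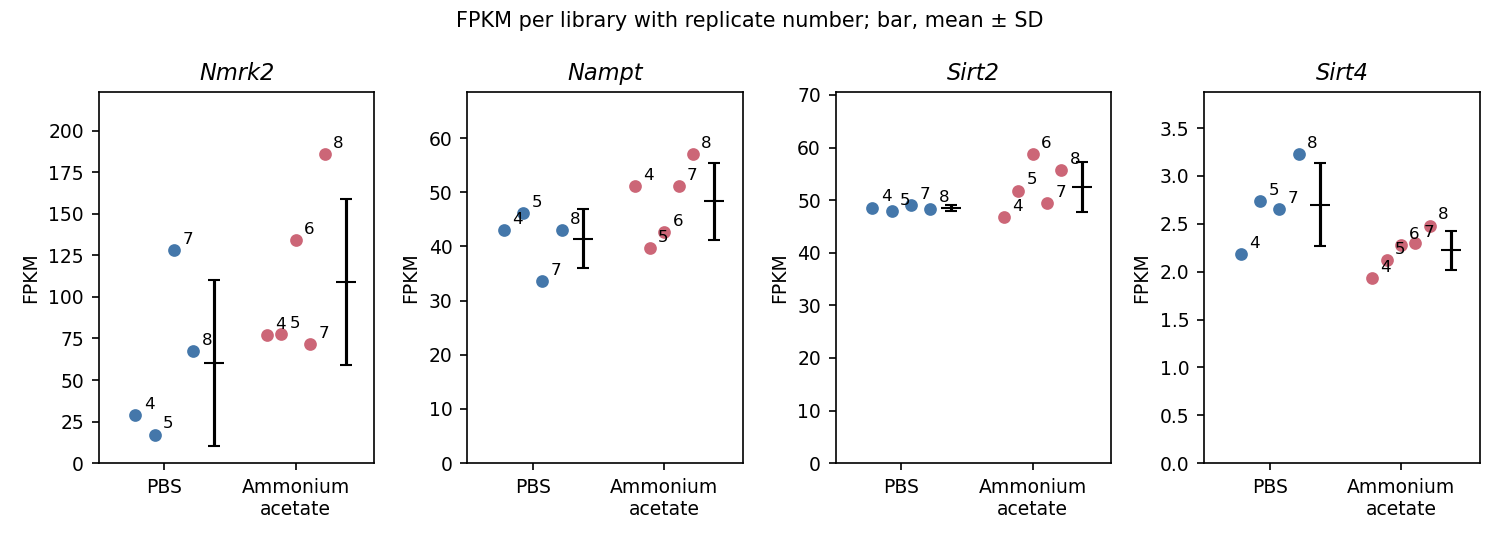
FPKM per library of Nmrk2, Nampt, Sirt2 and Sirt4, each on its own linear axis from 0, with the replicate number beside each point and the mean ± SD to the right of each group. The groups overlap in all 4 genes, and the PBS values of Nmrk2 run from 17.2 to 128 FPKM, and those of Sirt2 from 47.9 to 49.1.

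Sirt2, a cytosolic deacetylase whose substrates include alpha-tubulin (ENSMUSG00000015149, chromosome 7, 28766735 to 28788665, plus strand), was the steadiest member in the control muscles. It measured 48.6, 47.9, 49.1 and 48.4 FPKM in PBS 4, 5, 7 and 8, and 46.8, 51.8, 58.8, 49.4 and 55.7 FPKM in ammonium acetate 4 to 8. In ammonium acetate 4 libraries lay above the highest PBS value and 1 lay below the lowest. The SD between PBS libraries was 1.0% of the mean, below the 1.73% expected from the number of reads alone, and in ammonium acetate it was 9.15%. The means were 48.5 ± 0.485 and 52.5 ± 4.80 FPKM, with a log2 fold change of 0.11 (95% interval -0.09 to 0.31; limma, adjusted p = 0.593). The 2 highest values were in ammonium acetate 6 and 8, the libraries with the lowest values for long genes, and without them the log2 fold change was 0.02. A stretch of 42 exon bases is shared with Nfkbib on the opposite strand.

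The mitochondrial sirtuins showed no difference past the threshold, and their means were lower in ammonium acetate by small amounts. Sirt3 is the main deacetylase of the mitochondrial matrix (ENSMUSG00000025486, chromosome 7, 140863670 to 140882309, minus strand). It measured 12.9, 15.1, 10.2 and 12.6 FPKM in PBS and 11.3, 10.7, 9.60, 15.3 and 14 FPKM in ammonium acetate, in the order of the replicate numbers. The ammonium acetate values reached beyond the PBS values on both sides, with a log2 fold change of -0.06 (95% interval -0.40 to 0.27; limma, adjusted p = 0.849). Exons of Sirt3 share 418 bases with Ric8a and 342 with the proteasome gene Psmd13, both on the opposite strand.

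Sirt4 is a mitochondrial sirtuin known to restrain glutamate dehydrogenase (ENSMUSG00000029524, chromosome 5, 115478010 to 115484725, minus strand). It measured 2.18, 2.74, 2.65 and 3.23 FPKM in PBS 4, 5, 7 and 8, and 1.93, 2.12, 2.28, 2.30 and 2.48 FPKM in ammonium acetate 4 to 8. None of the 5 ammonium acetate libraries reached the PBS mean and 2 lay below the lowest PBS value, but the groups overlapped. The means were 2.70 ± 0.428 and 2.22 ± 0.210 FPKM, for a log2 fold change of -0.23 (standard error 0.13, 95% interval -0.51 to 0.05; limma, adjusted p = 0.527). It was -0.15 without PBS 8 and -0.28 without ammonium acetate 6 and 8. Each library gave between 95 and 199 Sirt4 reads, and the spread in ammonium acetate, 9.42% of the mean, was near the 9.10% that counting alone gives.

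Sirt5 removes succinyl, malonyl and glutaryl groups and, in liver, acts on the ammonia-fixing enzyme of the urea cycle (ENSMUSG00000054021, chromosome 13, 43370710 to 43395202, plus strand). It measured 5.50, 7.21, 5.90 and 6.53 FPKM in PBS and 5.09, 6.46, 5.90, 5.72 and 5.63 FPKM in ammonium acetate. One ammonium acetate library, replicate 5, lay above the PBS mean. The means were 6.29 ± 0.751 and 5.76 ± 0.491 FPKM and the log2 fold change was -0.11 (95% interval -0.36 to 0.13), or -0.05 without PBS 5 and -0.25 with the gene length trend removed.

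The nuclear sirtuins were low in both groups, and their differences were small beside their spread. Sirt1, which deacetylates regulators of transcription such as PGC-1alpha (ENSMUSG00000020063, chromosome 10, 63319005 to 63381704, minus strand), measured 1.42, 1.98, 1.98 and 2.37 FPKM in PBS and 1.73, 1.87, 2.02, 2.47 and 1.71 FPKM in ammonium acetate. Both groups centred on almost the same level, 1.94 ± 0.390 and 1.96 ± 0.313 FPKM. The log2 fold change of 0.02 had a 95% interval of -0.31 to 0.34, and was -0.09 without PBS 4. Sirt6, a chromatin deacylase tied to DNA repair and glycolysis (ENSMUSG00000034748, chromosome 10, 81621785 to 81627797, minus strand), measured 1.64, 1.25, 1.47 and 1.86 FPKM in PBS and 1.58, 0.955, 1.34, 1.94 and 2.22 FPKM in ammonium acetate. Its ammonium acetate values extended past the PBS range on both sides, on 45 to 148 reads per library, and its log2 fold change was 0.01 (95% interval -0.39 to 0.42).

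Sirt7, a nucleolar sirtuin linked to ribosomal RNA transcription (ENSMUSG00000025138, chromosome 11, 120618372 to 120625240, minus strand), was the lowest member and rested on 22 to 129 reads. It measured 0.720, 0.972, 0.855 and 0.648 FPKM in PBS and 0.548, 0.478, 0.262, 1.16 and 0.693 FPKM in ammonium acetate. Ammonium acetate held both the highest value, in replicate 7, and the 3 lowest, in replicates 4, 5 and 6. The means were 0.799 ± 0.144 and 0.629 ± 0.337 FPKM, with a log2 fold change of -0.24 (95% interval -0.70 to 0.21; limma, adjusted p = 0.600). It was -0.11 without ammonium acetate 6 and -0.40 without ammonium acetate 7. With 0.1 FPKM added in place of 0.5 it was -0.41, and by voom on the reads -0.44. The library with the lowest Sirt7, ammonium acetate 6, also had the lowest endothelial marker sum, 36.9 FPKM, whose part in the value was not tested. Sirt7 shares 124 exon bases with its neighbour Mafg on the same strand.

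**Figure D3:**
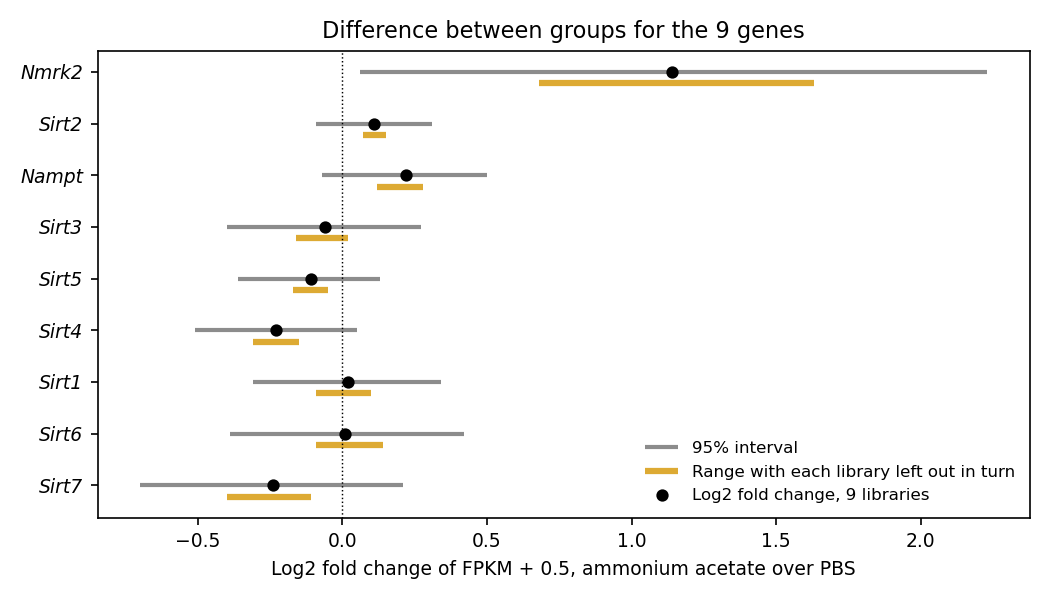
Log2 fold change of ammonium acetate over PBS for each of the 9 genes (points), with the 95% interval of the limma fit (grey) and the range obtained when each library was left out in turn (yellow). The interval of Nmrk2, from 0.06 to 2.23, is the only 1 of the 9 that lies on 1 side of 0, before adjustment over all genes.

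The summed level of the 7 sirtuins was alike in the groups, with a mean ± SD of 74.5 ± 2.32 FPKM over 4 PBS libraries and 76.8 ± 5.30 over 5 ammonium acetate libraries. Within the sum, Sirt4 took 3.62% ± 0.525 in PBS and 2.89% ± 0.0877 in ammonium acetate, and Sirt2 65.2% ± 2.65 and 68.3% ± 3.70. The share of Sirt4 lay between 2.79% and 3.01% in ammonium acetate, and PBS 4, at 2.99%, fell within that range.

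Spread between libraries was well above counting error for Nmrk2, Nampt and Sirt3, near it for Sirt4 in ammonium acetate and below it for Sirt2 in PBS. In PBS, the SD of Nmrk2 was 82.6% of its mean where its reads alone give 2.31%, and that of Nampt was 13.1% where they give 1.27%. For Sirt6 the SD was 16.8% of the mean in PBS and 30.9% in ammonium acetate, beside counting errors of 10.4% and 11.1%. For Sirt7 it was 18.0% and 53.6%, beside 10.9% and 14.6%.

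**Figure D4:**
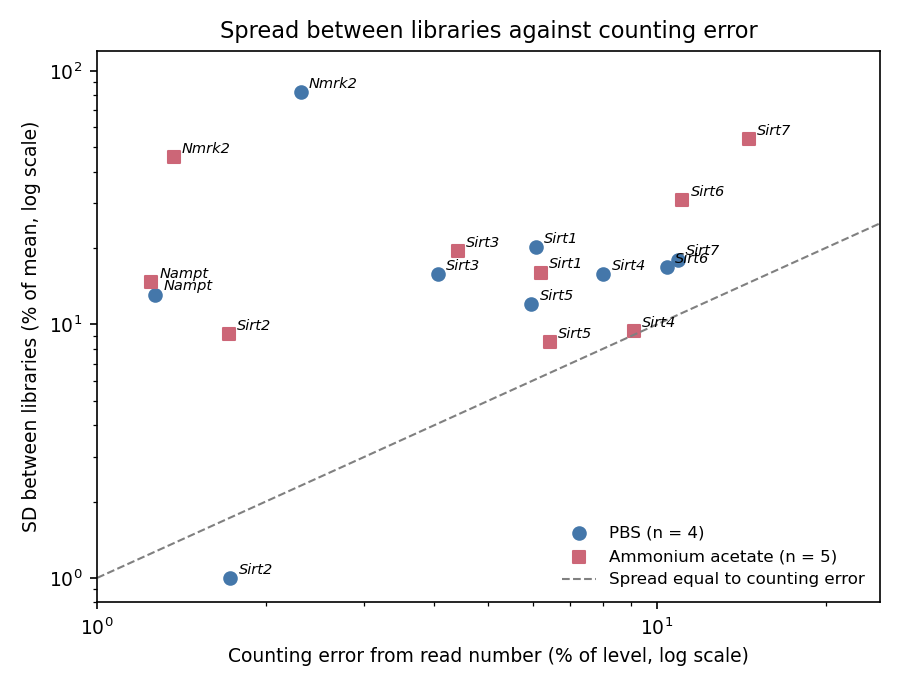
SD between libraries as a percentage of the group mean against the counting error from the number of reads, both on log axes, for each gene in PBS (circles) and ammonium acetate (squares); the dashed line marks equality. Nmrk2 lies farthest above the line, Sirt2 in PBS lies below it, and Sirt4 in ammonium acetate lies next to it.

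The genes around NAD supply did not change past the threshold. Of 26 listed genes of NAD salvage and synthesis, 25 were in the table and 13 were tested. Of these 0 passed in either direction, and the median log2 fold change was -0.01, beside -0.03 over all tested genes. Nmrk1, the second riboside kinase, was at 2.74 ± 0.457 FPKM under PBS and 2.64 ± 0.331 under ammonium acetate, far below Nmrk2 per length. Of the enzymes that complete NAD from its mononucleotide, Nmnat1 measured 7.70 ± 0.802 and 7.94 ± 1.28 FPKM, and the third of the family, Nmnat3, 7.33 ± 0.653 and 8.50 ± 1.58. Slc25a51, the mitochondrial NAD carrier, varied little, at 22.6 ± 0.525 and 23.7 ± 0.958 FPKM. The tested genes had log2 fold changes from -0.22 to 1.14, the upper end being Nmrk2. The genes that make NAD from tryptophan were scarcely detected: Tdo2, Ido2, Kmo, Kynu and Haao had mean levels between 0.0158 and 0.0819 FPKM. Ido1 was at 0.225, Qprt at 0.327 and Afmid at 0.331 FPKM, also below the level for testing.

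The NAD consumers lay lower on average in ammonium acetate, with none past the threshold. Of 23 listed genes 21 were tested, 17 had a log2 fold change below 0, and the median was -0.23, against -0.03 over all tested genes. At an unadjusted p under 0.05 there were 5, all lower, beside 5.36% of all tested genes in that direction. Parp10, an ADP-ribosyltransferase known to be induced by interferon, measured 0.951, 1.5, 1.57 and 2.32 FPKM in PBS and 0.846, 0.718, 0.457, 1.06 and 0.716 FPKM in ammonium acetate. Only ammonium acetate 7 exceeded the lowest PBS library, and the log2 fold change was -0.71 (95% interval -1.15 to -0.27; limma, adjusted p = 0.527). Parp12 and Parp14, also interferon-induced, had log2 fold changes of -0.54 and -0.68. PBS 8, the library highest in long genes, held the highest value of each, 3.65 and 3.47 FPKM. Without PBS 8 the changes were -0.39 and -0.39. Parp10 was also highest in PBS 8, and its log2 fold change without that library was -0.55. Correcting all libraries for gene length gave -0.69 for Parp10, -0.53 for Parp12 and -0.48 for Parp14. Cd38, an NAD hydrolase, measured 3.54 ± 0.277 and 2.75 ± 0.504 FPKM, and the DNA damage sensor Parp1 18.9 ± 1.04 and 16.5 ± 2.73. Without ammonium acetate 6 and 8 the list median was -0.08. The endothelial marker sums given above were lowest in those 2 libraries; their part in these values was not tested.

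Regulators, substrates and other deacetylases likewise held no gene past the threshold. Of 25 tested regulators and partners of sirtuins 20 were below 0, with a median of -0.12. Over all 11337 tested genes 6358 were below 0, with a median of -0.03. The genes of smallest p were the transcription factor Foxo3 (4.64 ± 0.974 and 3.26 ± 0.706 FPKM), the acetyltransferase Ep300 (7.77 ± 0.663 and 5.88 ± 1.78) and the RNA polymerase I subunit Polr1a (7.2 ± 0.3 and 5.86 ± 1.75). Without ammonium acetate 6 and 8 their log2 fold changes of -0.45, -0.42 and -0.32 became -0.26, -0.13 and -0.09, and the list median 0.02. Of 28 tested substrates of the mitochondrial sirtuins 21 were below 0 (median -0.10), among them the 2-oxoglutarate dehydrogenase subunit Ogdh (259 ± 28.3 and 213 ± 44.5 FPKM) and the acetyl-CoA synthetase Acss1 (8.72 ± 3.50 and 5.83 ± 2.64). Without ammonium acetate 6 and 8 these log2 fold changes, -0.30 and -0.55, became -0.10 and -0.35. The urea cycle enzymes Cps1 and Otc, which are liver targets of mitochondrial sirtuins, did not reach the level for testing.

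Of the 11 zinc-dependent deacetylases 9 were below 0, beside 6358 of all 11337 tested genes, with a median of -0.12. Hdac7 measured 3.27 ± 0.598 and 1.99 ± 0.825 FPKM and Hdac4 5.25 ± 0.562 and 3.92 ± 0.978, both lowest in ammonium acetate 6 or 8. Hdac3 lay on the other side at 12.8 ± 1.0 and 15.8 ± 2.81 FPKM. Their log2 fold changes of -0.66, -0.40 and 0.28 were -0.29, -0.24 and 0.14 without those 2 libraries.

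**Figure D5:**
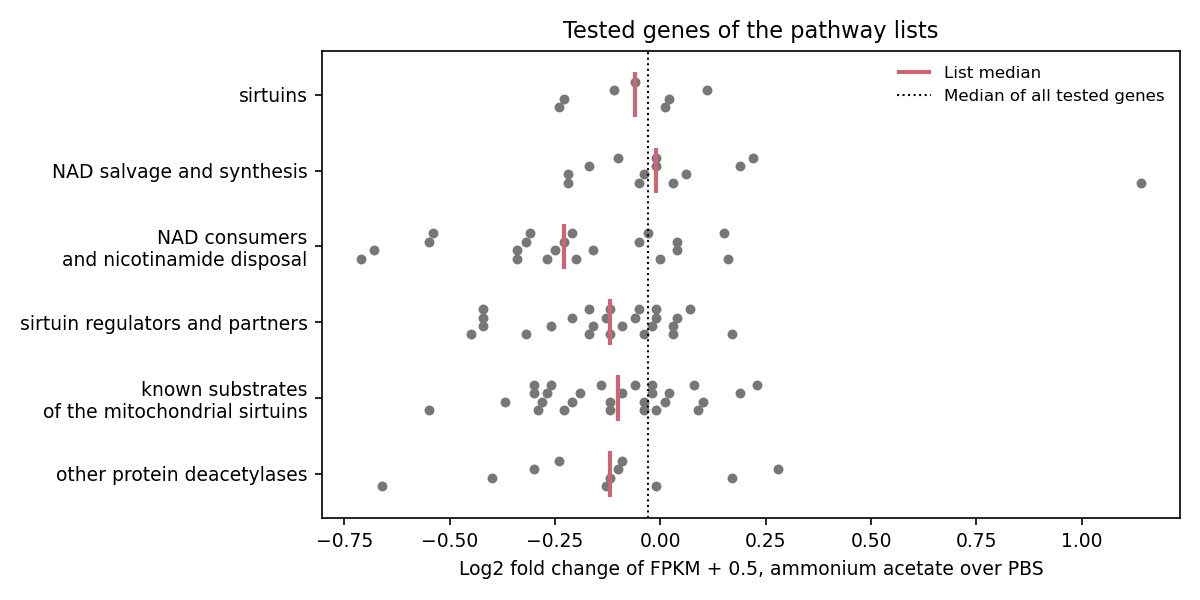
Log2 fold change of ammonium acetate over PBS for every tested gene of the 6 lists, with each list's median in red and the median of all tested genes as a dotted line. The NAD consumers have the lowest list median, -0.23, and Nmrk2 is the single point above 1.

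The genes whose level followed each member most closely over the 9 libraries, among genes with a mean of at least 5 FPKM, were found by Pearson's r on log2(FPKM + 0.5). They describe these 9 libraries, share their scaling and depth, and were picked as the highest among all such genes. Nmrk2 was matched most closely by Cdc123 (r = 0.943) and Ube2r2 (r = 0.917), whose levels moved far less, Cdc123 being at 18.2 ± 1.29 FPKM in PBS and 19.2 ± 0.991 in ammonium acetate. Nampt was matched by Pofut2 (0.959) and Snx15 (0.924), and Sirt2 by the histone variant H2afv (0.989) and the translation factor subunit Eif3k (0.986). Sirt3 followed the mitochondrial genes Qrsl1 (0.965), which takes part in making glutaminyl-tRNA, and Mrpl45 (0.961), a ribosomal protein. Sirt7 followed the water channel Aqp1 (0.991), at 166 ± 8.25 FPKM for PBS and 151 ± 32.8 for ammonium acetate, and then Larp7 (0.923). The remaining pairs were Sesn1 (0.872) and Capg (0.859) for Sirt1, Bnip2 (0.887) and Arpc5 (0.881) for Sirt4, Crtap (0.913) and Itm2b (0.903) for Sirt5, and Adrbk1 (0.976) and Cdk16 (0.953) for Sirt6.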

How the data were processed

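The authors deposited 1 table of FPKM values, which also gives Ensembl identifiers, symbols, coordinates and lengths. Tools named in the submitters' processing notes, without version or role, are HTSeq, DESeq2, STAR and TopHat, and the build is mm10. Multiplied by length, FPKM had an equal sum in every library, and 100.0% of values above 0 gave whole reads within 0.05 read. No pair of libraries was identical.

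The test was limma 3.58.1 (R 4.3.3, trend on) fitted to log2(FPKM + 0.5) of the 11337 genes whose mean FPKM reached 0.5. Tests were two-sided with Benjamini-Hochberg adjustment over all tested genes and 0.05 as threshold. The added 0.5 makes the fold changes of low genes too small. The fit was tested on simulated data. Counting error is the square root of the mean inverse read number over the libraries of a group, and covers counting only. Exon overlap comes from GENCODE M21 (mm10).

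The members and lists were chosen with earlier results of these data known. Named genes were the 9 members, the 3 genes of smallest p in each list and, for each member, the 2 genes of highest r, except that 1 list gene is not reported here. Other genes given with values (Nmrk1, Nmnat1, Slc25a51, Cd38, Parp1 and the tryptophan pathway) are list genes chosen for their role. Symbols were matched directly or through the Ensembl identifier. Slc25a52 had no row. The 21 alternatives covered the pseudocount, filter, scaling, gene length trend, library weights, replicate block, voom on reads and libraries left out. Figures were made with Python 3.11.15 and matplotlib 3.10.9.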

Additional observations from a re-analysis of the deposited data

How the results depend on the processing

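Under 21 alternatives (20 for Sirt7, which a minimum mean of 1 FPKM removed) no member and 0 genes overall passed the adjusted threshold, and the smallest adjusted p of any gene was 0.306. Nmrk2 (0.68 to 1.63), Nampt (0.11 to 0.30), Sirt2 (0.02 to 0.15), Sirt4 (-0.32 to -0.15), Sirt5 (-0.25 to -0.05) and Sirt7 (-0.44 to -0.11) kept the sign of their log2 fold change throughout. The members near 0 did not. Sirt1 was at -0.01 when scaled without mitochondrially encoded genes and -0.05 with limma's array weights, and ran from -0.09 to 0.10 with each library left out in turn. Sirt6 was at -0.01, -0.07, -0.16 and -0.07 with that scaling, the gene length trend removed, array weights and without ammonium acetate 6 and 8, and ran from -0.09 to 0.14 with each library left out. Sirt3 ran from -0.16 to 0.02 with each library left out and was at 0.01 with the replicate number as a block. The cause was not tested. The number of genes at an unadjusted p under 0.05, 972 with all libraries, was 256 without ammonium acetate 6 and 8, 260 with the block, and from 305 to 1730 with each library left out.

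Same-numbered libraries did not deviate together (correlations from -0.337 to -0.073 over all tested genes, and 0 of 4 numbers matched best with themselves), so the numbers were not taken as pairs. With the replicate block Nmrk2 was at 1.04 and still 0 genes passed. Counting error was largest for Sirt7, Sirt6 and Sirt4, the members with the fewest reads, and in ammonium acetate the spread of Sirt6 and Sirt7 exceeded it.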

Other observations

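Over the 9 libraries the members did not move as a block. Of the 36 pairs of members, 22 had a Pearson's r above 0 on log2(FPKM + 0.5) and 14 below, with a median of 0.14. The highest was between Sirt3 and Sirt7 (r = 0.76), followed by Sirt3 with Nampt and Sirt4 with Sirt5 (0.64 each). Nmrk2 and Nampt, the salvage enzymes, showed almost none (0.03). Nmrk2 lay with Sirt2 (0.62) and opposite to Sirt3 (-0.49), and Sirt2 lay opposite to Sirt7 (-0.60). These are descriptions over 9 libraries that share their scaling, and ammonium acetate 6 held the highest Sirt2 and the lowest Sirt3 and Sirt7. Psmd13, which shares exon bases with Sirt3 on the other strand, had a mean of 35.0 ± 2.26 FPKM for PBS and 37.4 ± 4.66 for ammonium acetate, with an r of -0.13 to Sirt3. For other genes that share exon bases, r was 0.79 for Nfkbib with Sirt2 and 0.50 for Ric8a with Sirt3. It was 0.45 for Mafg with Sirt7 and -0.05 for Atcayos with Nmrk2. The part of the shared bases was not tested.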
